A study of Mus musculus with 9 samples.

Results

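Adipocyte marker genes are transcripts that white fat cells make in quantity and that other cells make little of, and 9 of the 24346 genes in the deposited table were followed here because their symbols stand on a list of such markers. They are Adipoq, Lep, Retn, Cfd, Plin1, Plin4, Cidec, Fabp4 and Car3, and their values were read in 9 libraries made from mRNA of the mouse IS-caput, a piece of epididymis that joins the initial segment to the caput. Of these libraries 3 came from Nicol-/- mice, 3 from Ros1-/- mice and 3 from Nicol+/- mice, all given as 14 weeks old. Nicol encodes a small secreted protein, and its null allele lacks the whole coding sequence. Ros1 encodes a receptor tyrosine kinase of the epididymal epithelium. The Nicol+/- controls carry 1 null allele of Nicol themselves, and both knockouts were set against the same 3 Nicol+/- libraries, a Ros1+/- library not being analysed here. The text of the series speaks of 4 replicates per genotype, against 3 in its sample list. The labels do not say which animals made up each library. P-values therefore reflect how far libraries of a genotype differed, and this spread may be technical. Values are RPKM, the reads of a gene divided by its exon length and by library size, as scaled between libraries by the authors.

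White adipocytes store triglyceride in a single large lipid droplet and secrete hormones called adipokines. In the mouse the caput lies against the epididymal fat pad, a white fat depot, and fat is trimmed from it by hand. The droplet is coated by perilipins, of which PLIN1 guards the stored fat from lipases, and it grows by transfer of lipid from smaller droplets through CIDEC. Fatty acids move through the cytosol bound to FABP4. In bulk tissue, more cells of a type and more RNA per cell cannot be told apart.

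The estimated depth was between 8189631 and 16595501 reads per library, and it was lowest in Nicol+/- replicate 1 and in Nicol-/- replicates 2 and 1. Gm1673, the gene of NICOL, was listed at 0 in the 3 Nicol-/- libraries, against 6.05 to 9.09 RPKM in the Nicol+/- libraries, and Ros1 stood at 8.06 to 9.32 RPKM in the Ros1-/- libraries, against 40.7 to 48 RPKM in the Nicol+/- libraries. Adam7, a gene of the caput epithelium, had 1470.4 to 2391.7 RPKM in Nicol-/-, 2247.9 to 2533.0 RPKM in Ros1-/- and 2624.1 to 3986.0 RPKM in Nicol+/-. It is 1 of 9 listed genes of the caput and initial segment epithelium, all tested. Limma called 4 of them lower in Nicol-/- and 3 lower in Ros1-/- against Nicol+/-, and 0 higher. Among all tested genes 11.9% and 13.3% were lower. Lcn8, for example, had means of 5.83 RPKM in Nicol-/-, 4.48 RPKM in Ros1-/- and 13760 RPKM in Nicol+/-. Nicol-/- replicate 3 stood apart in its 6 efferent duct and ciliated cell markers, which summed to 87.2 RPKM there. The sums were 38.45 and 42.5 RPKM in Nicol-/- replicates 1 and 2, 29.9 to 40.1 RPKM in Ros1-/- and 21.1 to 29.0 RPKM in Nicol+/-. Of these markers 4 were tested. Against Nicol+/-, limma called all 4 higher in Nicol-/- and 0 higher in Ros1-/-, where 8.95% and 9.52% of all tested genes were higher.

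All 9 markers are protein-coding genes of mm10 (GRCm38) in the GENCODE annotation. Adipoq lies on chromosome 16 from 23146536 to 23158028 (+ strand), Lep on chromosome 6 from 29060220 to 29073877 (+ strand), Retn on chromosome 8 from 3655770 to 3660110 (+ strand) and Cfd on chromosome 10 from 79890853 to 79892655 (+ strand). Plin1 lies on chromosome 7 from 79720218 to 79732903 (- strand), Plin4 on chromosome 17 from 56100591 to 56109803 (- strand) and Cidec on chromosome 6 from 113424634 to 113435760 (- strand). Fabp4 and Car3 share chromosome 3, from 10204088 to 10208576 (- strand) and from 14863512 to 14872523 (+ strand). Plin4 overlaps the end of Hdgfl2 on the opposite strand by 17 bases, and the other 8 markers overlap no annotated gene. The values are summed over all exons of a gene, and the strand setting of the counting was not stated.

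RefSeq promoter sequences of GRCm38.p6 were matched for 7 of the 9 markers, all but Fabp4 and Car3, by the 250 bases before each start site. The promoters of Adipoq and of Plin1 are shown as those of markers whose levels moved together across the libraries, and that of Lep because its level moved apart from theirs in the library with the most Adipoq RNA. Only bases outside annotated genes are printed, 5′ to 3′ on the strand of the gene, with matches in capitals to either strand of TTGCNNAA, the core letters of sites for C/EBP transcription factors, or of CCAAT. The windows are chr16:23146286-23146535 (+ strand) for Adipoq, chr7:79732904-79733026 (- strand) for Plin1 and chr6:29059971-29060219 (+ strand) for Lep.
Adipoq: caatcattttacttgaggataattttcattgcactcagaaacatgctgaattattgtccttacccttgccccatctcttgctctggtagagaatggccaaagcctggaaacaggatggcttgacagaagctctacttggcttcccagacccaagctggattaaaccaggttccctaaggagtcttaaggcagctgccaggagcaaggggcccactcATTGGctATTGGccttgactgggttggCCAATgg
Plin1: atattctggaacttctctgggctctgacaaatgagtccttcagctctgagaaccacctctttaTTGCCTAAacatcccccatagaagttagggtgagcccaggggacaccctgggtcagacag
Lep: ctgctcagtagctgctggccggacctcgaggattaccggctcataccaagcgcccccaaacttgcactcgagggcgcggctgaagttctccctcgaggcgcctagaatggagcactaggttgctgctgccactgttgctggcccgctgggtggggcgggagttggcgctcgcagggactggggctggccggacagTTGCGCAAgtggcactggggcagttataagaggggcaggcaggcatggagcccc
In the full windows of 250 bases, TTGCNNAA was found in 3 of the 7 markers and in 9.56% of the 32851 promoters in the table. Plin1 had 2 matches, whose first bases lay 187 and 58 bases before the start site, the nearer of them in the stretch not printed. Lep had 1 at 55 bases, and the second start site of Cidec had 1 at 198 bases. CCAAT was found in 2 of the 7 markers, against 33.8% of all promoters. Adipoq had 3 matches, at 34, 27 and 7 bases before its start site, and Plin4 had 1 at 18 bases. No matches overlapped one another. A match is a run of letters, and binding was not measured.

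Across the 9 libraries, most of the adipocyte markers were low and had their highest levels in the same few libraries, Nicol-/- replicates 1 and 2 and Nicol+/- replicate 3. The other Nicol-/- library, replicate 3, had 5 of the 9 markers listed at 0. Plin4 was the exception, at 5.27 RPKM or more in every library. None of the 4 markers that could be tested was called by limma in any comparison of genotypes. At an unadjusted limma p under 0.05 there was 1 of them between Ros1-/- and Nicol+/-, and 4 between Ros1-/- and Nicol-/-. The shares of all tested genes at that threshold were 36.7% and 17.1%. Cfd and Car3 entered the test only through the libraries in which they were high.

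**Figure D1:**
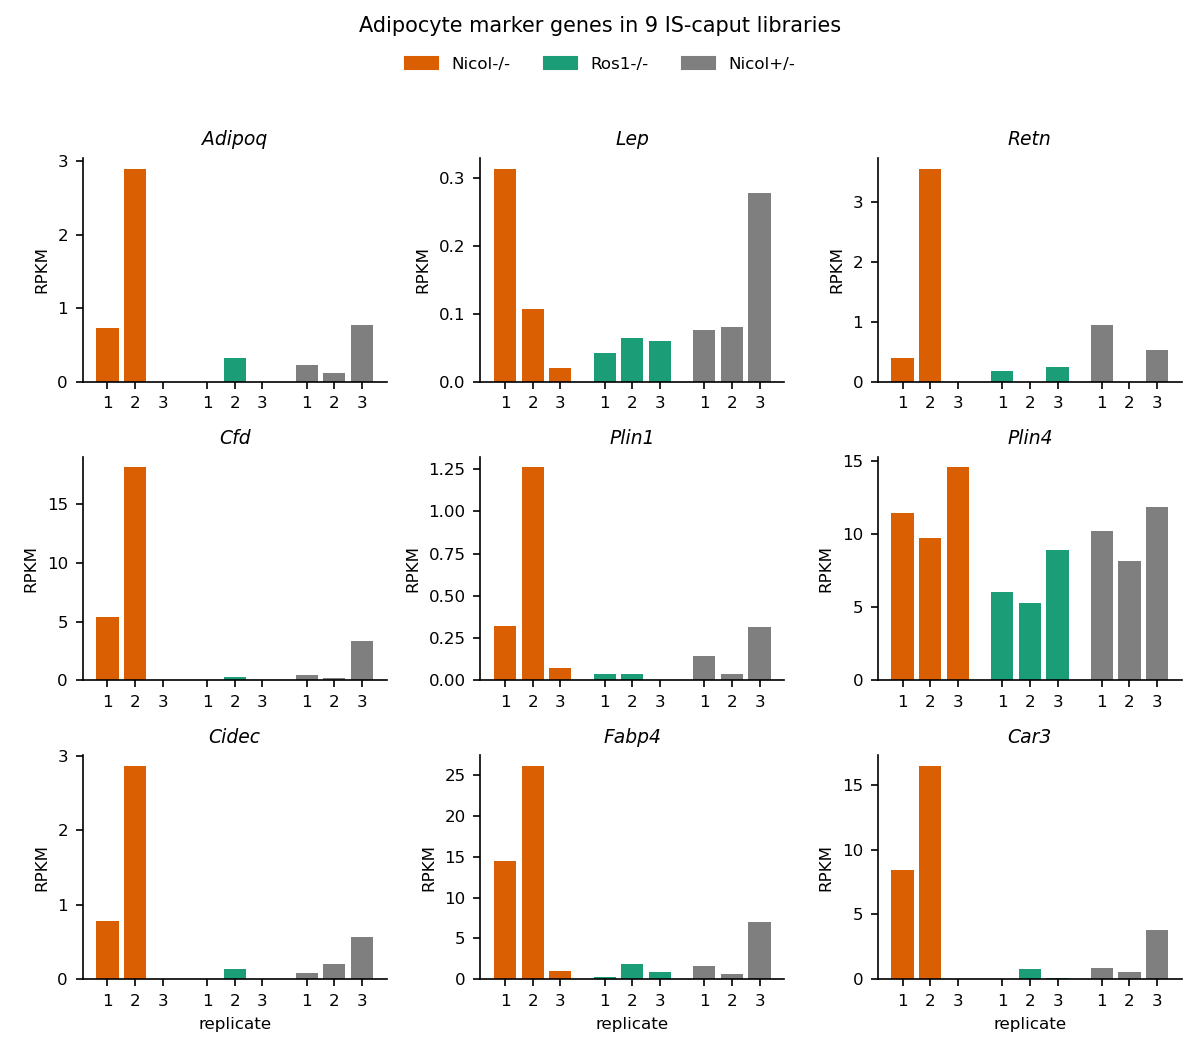
RPKM (vertical axes, linear from 0, each with its own scale) of the 9 adipocyte marker genes in the 3 Nicol-/-, 3 Ros1-/- and 3 Nicol+/- libraries, 1 bar per library, by replicate number. Nicol-/- replicate 2 has the tallest bar in 7 of the 9 panels, up to 26.1 RPKM for Fabp4, whereas Plin4 lies between 5.27 and 14.6 RPKM throughout.

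Among the secreted products, Adipoq encodes adiponectin, the most abundant hormone of fat cells. It had 0.729, 2.90 and 0 RPKM in Nicol-/-, 0, 0.321 and 0 RPKM in Ros1-/-, and 0.229, 0.120 and 0.765 RPKM in Nicol+/- (replicates 1 to 3). The ranges of the 3 genotypes overlapped. These values rest on few reads, an estimated 27 in Nicol-/- replicate 2 (95% exact Poisson interval 17.8 to 39.3), 12 in Nicol+/- replicate 3 (6.20 to 21) and 7 in Nicol-/- replicate 1 (2.81 to 14.4), intervals that cover counting error only. At this depth, 0 reads allow up to 0.184 RPKM in Nicol-/- replicate 3, 0.190 RPKM in Ros1-/- replicate 1 and 0.269 RPKM in Ros1-/- replicate 3, taking 3 reads as the limit.

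Cfd encodes adipsin, or complement factor D, a serine protease of the alternative complement pathway that mouse fat cells secrete. It had 5.38, 18.1 and 0 RPKM in Nicol-/-, 0, 0.274 and 0 RPKM in Ros1-/-, and 0.492, 0.169 and 3.37 RPKM in Nicol+/-. In Nicol-/- replicate 2 this placed Cfd above 82.3% of all genes of the library, while in Nicol-/- replicate 3 and Ros1-/- replicates 1 and 3 it was listed at 0, for which the limits were 0.264, 0.273 and 0.386 RPKM. Within Nicol-/-, the spread between libraries was thus larger than the difference from either other genotype.

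Retn encodes resistin, an adipokine of mouse fat cells. Its values were 0.403, 3.56 and 0 RPKM in Nicol-/-, 0.176, 0 and 0.249 RPKM in Ros1-/-, and 0.945, 0 and 0.529 RPKM in Nicol+/-. Only Nicol-/- replicate 2, with an estimated 12 reads, exceeded 4 reads of this gene.

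Lep encodes leptin, the hormone through which fat stores are signalled to the brain. It had 0.314, 0.108 and 0.0205 RPKM in Nicol-/-, 0.0425, 0.0645 and 0.0600 RPKM in Ros1-/-, and 0.0766, 0.0801 and 0.277 RPKM in Nicol+/-, from 1 to 13 estimated reads. Every Ros1-/- value lay below every Nicol+/- value, as was so for 23.8% of the 13647 genes tested (Lep itself was not tested), but the estimated reads were 2, 3 and 2 in Ros1-/- and 2, 4 and 13 in Nicol+/-, so the difference was not detectable at this depth. Lep was not highest in the library with the most Adipoq. Of the reads of Lep and Adipoq together, Lep took 56.2% in Nicol-/- replicate 1 (95% Clopper-Pearson interval 29.9 to 80.2%), 10% in Nicol-/- replicate 2 (2.11 to 26.5%) and 52% in Nicol+/- replicate 3 (31.3 to 72.2%). These intervals cover counting error only, and Nicol-/- replicate 2 was singled out by its high Adipoq, which by itself lowers this share.

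Of the lipid droplet proteins, Plin1 encodes perilipin 1, the main coat of the adipocyte droplet. It had 0.322, 1.26 and 0.0758 RPKM in Nicol-/-, 0.0392, 0.0397 and 0 RPKM in Ros1-/-, and 0.142, 0.0370 and 0.315 RPKM in Nicol+/-. Cidec, whose protein joins droplets, had 0.784, 2.86 and 0 RPKM in Nicol-/-, 0, 0.132 and 0 RPKM in Ros1-/-, and 0.0783, 0.205 and 0.566 RPKM in Nicol+/-. In both genes the 3 highest libraries were Nicol-/- replicate 2, Nicol-/- replicate 1 and Nicol+/- replicate 3, in this order, and the genotypes overlapped.

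Plin4 encodes perilipin 4, which coats small and nascent droplets and is also made in heart and skeletal muscle. It had 11.4, 9.71 and 14.6 RPKM in Nicol-/-, 6.05, 5.27 and 8.93 RPKM in Ros1-/-, and 10.2, 8.15 and 11.9 RPKM in Nicol+/-. Its means were 11.9 ± 2.45 RPKM in Nicol-/-, 6.75 ± 1.93 RPKM in Ros1-/- and 10.1 ± 1.86 RPKM in Nicol+/- (SD, n = 3 each). Nicol-/- replicate 3, in which Adipoq, Retn, Cfd, Cidec and Car3 were listed at 0, had the highest Plin4 of all libraries, from an estimated 1292 reads. Plin4 took between 48.8% of the estimated reads of all 9 markers, in Nicol-/- replicate 2, and 99.2%, in Nicol-/- replicate 3.

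Fabp4 encodes the fatty acid carrier of fat cells, which capillary endothelium and macrophages also make. It was the highest of the markers other than Plin4, at 14.4, 26.1 and 1.02 RPKM in Nicol-/-, 0.303, 1.84 and 0.857 RPKM in Ros1-/-, and 1.64, 0.572 and 6.99 RPKM in Nicol+/-. Unlike Adipoq it was listed at 0 in no library, and it kept 7 estimated reads in Nicol-/- replicate 3. The endothelial markers summed to 58.4 to 65.6 RPKM in Nicol-/-, 63.3 to 70.5 RPKM in Ros1-/- and 70 to 95.1 RPKM in Nicol+/-. Egfl7 was the largest part of this sum, with means of 34.9, 44.4 and 36.9 RPKM in the same order. Of the 8 markers, all tested, limma called 4 lower in Nicol-/- and 6 lower in Ros1-/- against Nicol+/-, and 0 higher. Among all tested genes 11.9% and 13.3% were lower in these comparisons. The part of endothelium in the remaining Fabp4 was not tested.

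Car3 encodes carbonic anhydrase 3, a cytosolic enzyme abundant in fat, muscle and liver. It had 8.39, 16.4 and 0 RPKM in Nicol-/-, 0, 0.746 and 0.0695 RPKM in Ros1-/-, and 0.886, 0.510 and 3.80 RPKM in Nicol+/-. The high libraries were again Nicol-/- replicates 2 and 1 and Nicol+/- replicate 3. Of 9 skeletal muscle markers, 3 were tested, and of these limma called Acta1 and Ckm higher in Nicol-/- than in Nicol+/- (log2 fold changes 0.49, adjusted p = 0.0326, and 0.61, adjusted p = 0.0495) and Acta1 lower in Ros1-/- than in Nicol-/- (-1.02, adjusted p = 0.0147) and than in Nicol+/- (-0.53, adjusted p = 0.0216). None of these calls held in every fit that left out a library. Of all tested genes, 8.95% were higher in Nicol-/- than in Nicol+/-. Lower in Ros1-/- were 1.15% against Nicol-/- and 13.3% against Nicol+/-. The 2 calls in Nicol-/- against Nicol+/- became 0 without Nicol-/- replicate 1, Nicol-/- replicate 3, Ros1-/- replicate 1, Nicol+/- replicate 2 or Nicol+/- replicate 3. They also became 0 without a filter on low values and with the normalized count as the measure. They became 1 without Nicol-/- replicate 2, with a pseudocount of 0.1, with quantile normalization and with only the 6 libraries compared. The replicate number as a block, over the 9 libraries or in these 6, left 1 as well. Both calls of Acta1 in Ros1-/- were lost without a filter on low values. Acta1 lost its call against Nicol-/- without Nicol-/- replicate 1, Ros1-/- replicate 1 or Ros1-/- replicate 2, and its call in Ros1-/- against Nicol+/- without Ros1-/- replicate 1, Ros1-/- replicate 2, Nicol+/- replicate 1 or Nicol+/- replicate 3. Of the untested markers, the fast myosin genes Myh2 and Myh4 were listed at 0 in every library and Myh1 reached at most 0.214 RPKM, in Ros1-/- replicate 2, while the summed list stood at 12.3 to 15.1 RPKM in Nicol-/-, 8.41 to 10.7 RPKM in Ros1-/- and 10.3 to 11.3 RPKM in Nicol+/-. The part of muscle in the level of Car3 was not tested.

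The reads of the markers other than Plin4 and Lep were also summed, a set of 7 chosen after the values of all 9 had been seen. The 3 libraries highest in Adipoq were also the 3 highest in Cfd, Plin1, Cidec, Fabp4 and Car3, and in Lep, but not in Retn, of which Nicol+/- replicate 1 had more than Nicol-/- replicate 1. Scaled to a depth of 1000000 reads, their estimated reads summed to 24.5, 59.1 and 0.594 in Nicol-/-, 0.259, 2.52 and 0.520 in Ros1-/-, and 3.42, 1.51 and 12.5 in Nicol+/-. In reads, these were 223, 515 and 9 in Nicol-/-, 4, 39 and 6 in Ros1-/-, and 28, 25 and 196 in Nicol+/-. The range within Nicol-/- alone covered that of both other genotypes, apart from Ros1-/- replicates 1 and 3 at its lower end.

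**Figure D2:**
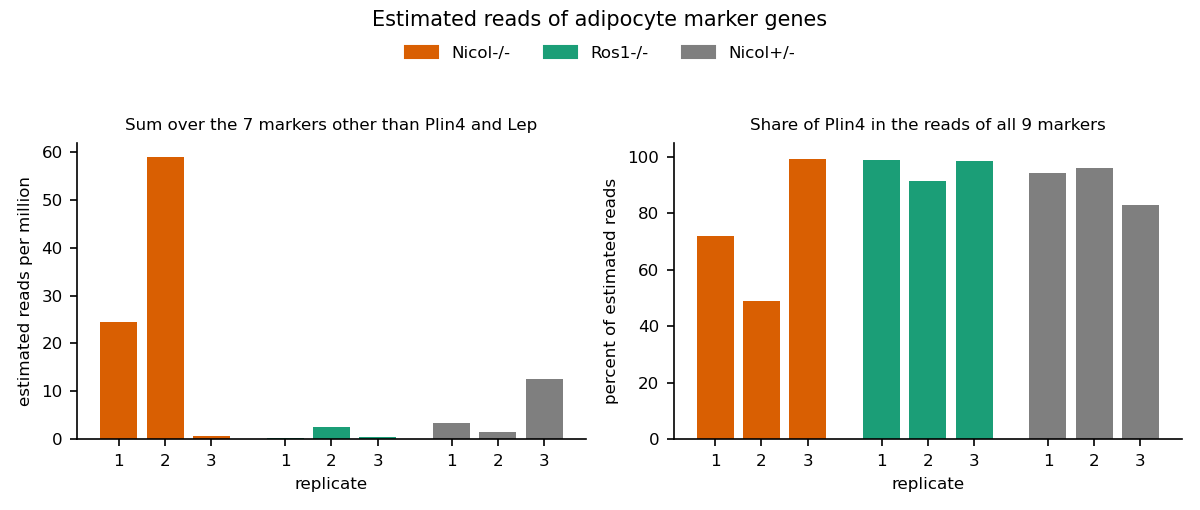
Left, estimated reads at a depth of 1000000 summed over the 7 markers other than Plin4 and Lep in each library, and right, the percentage of the estimated reads of all 9 markers that Plin4 took, 1 bar per library and both axes from 0. The left panel runs from 0.259 in Ros1-/- replicate 1 to 59.1 in Nicol-/- replicate 2, and the right panel is lowest, at 48.8%, in Nicol-/- replicate 2.

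Correlation with Adipoq on log2(RPKM + 1) over the 9 libraries, which fall into 3 genotypes, was 0.984 for Cidec, 0.974 for Plin1, 0.967 for Cfd, 0.943 for Car3, 0.928 for Fabp4 and 0.871 for Retn. It was 0.452 for Lep and 0.174 for Plin4. After the genotype means were taken away, Cidec kept 0.981, Cfd 0.958 and Fabp4 0.904, and Plin4 had -0.44. By the correlation before the means were taken away, Cfd, Car3 and Fabp4 held ranks 1, 2 and 3 among the 13647 genes tested, and Plin4 rank 4312. Cfd and Car3 passed the filter only through the 3 libraries highest in Adipoq, which by itself favours a high rank. Low genes of a like course, such as Cidec and Plin1, did not pass it and have no rank. With the means taken away, Limch1 at 0.942 and Clmn at 0.930 stood above Car3 at 0.922 and Fabp4. Pairs with Lep or Plin4 had correlations of 0.174 to 0.691, and the 21 pairs among the 7 others had 0.745 to 0.988, a gap that follows from how these 7 were chosen. Nicol-/- replicate 2 weighs heavily in these values. Without it the correlation with Adipoq was 0.933 for Cidec, 0.945 for Cfd, 0.954 for Car3 and 0.933 for Fabp4, but 0.444 for Retn and 0.931 for Lep.

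**Figure D3:**
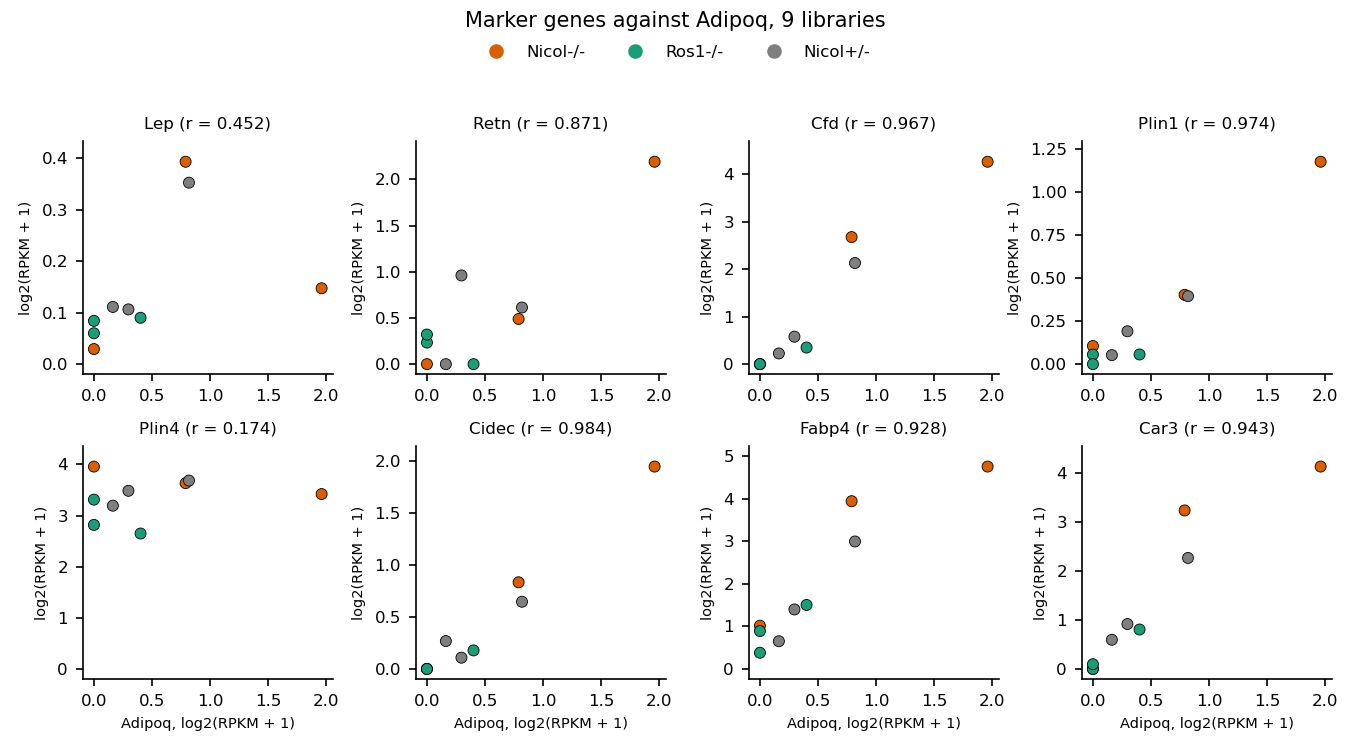
Level of each of 8 markers against that of Adipoq, both as log2(RPKM + 1), with 1 point per library coloured by genotype and Pearson's r over the 9 libraries above each panel. Cidec, Plin1, Cfd, Car3 and Fabp4 lie along a line with r of 0.928 or more, while Lep is low at the highest Adipoq and Plin4 shows no such line at r of 0.174.

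The ratio of each marker to Adipoq was compared in the 3 libraries with at least 7 estimated Adipoq reads, in the order Nicol-/- replicate 1, Nicol-/- replicate 2 and Nicol+/- replicate 3. Plin1 stood at 0.442, 0.435 and 0.412 of the RPKM of Adipoq, and Cidec at 1.08, 0.988 and 0.741. Cfd stood at 7.38, 6.26 and 4.41 times and Fabp4 at 19.8, 9.01 and 9.15 times the RPKM of Adipoq. The ratios of Car3 were 11.5, 5.68 and 4.97, and those of Retn 0.553, 1.23 and 0.692. Fabp4, Car3 and Retn thus each differed by more than 2 times between these libraries in their ratio to Adipoq. Each ratio carries the counting error of 7, 27 and 12 Adipoq reads in these libraries. Plin4 had ratios of 15.7, 3.35 and 15.5, and Lep of 0.430, 0.0372 and 0.362, the lowest of each in Nicol-/- replicate 2.

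Among the tested genes, those outside the list that followed Adipoq most closely did so with far smaller amplitude. Low genes that the filter removed were not searched. The 3 with the highest correlations were Limch1 at 0.923, Utp20 at 0.921 and Clmn at 0.910. Over the 12 genes that came next after the markers, correlations were 0.869 to 0.923, and the highest library was Nicol-/- replicate 2 for each of them. Their highest RPKM was 1.22 to 1.82 times their lowest, whereas Fabp4 ran from 0.303 to 26.1 RPKM. Larger amplitudes occurred below these 12, as in the globin gene Hba-a1, with a correlation of 0.837 and 9.90 to 164.1 RPKM.

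Whether the markers differed between genotypes was tested with limma on log2(RPKM + 1), where a gene is called at a Benjamini-Hochberg adjusted p under 0.05 and enters if it has at least 1 RPKM in at least 3 libraries. Only Plin4, Fabp4, Car3 and Cfd passed this filter. Fabp4 reached 1 RPKM in 6 libraries, and Car3 and Cfd in 3, the libraries in which they were high, so that these 2 entered the test only through those. Thus the 5 other markers have values but no test here. Of the 4, 0 were called in any comparison, where limma called 20.9% of all tested genes between Nicol-/- and Nicol+/-, 22.8% between Ros1-/- and Nicol+/- and 1.55% between Ros1-/- and Nicol-/-. With only the 6 libraries of Nicol-/- and Nicol+/- in the fit, 1732 of all genes were called without a block and 1730 with the replicate number as a block, against 2849 with all 9 libraries, and 0 of the 4 markers in each of these fits. At an unadjusted p under 0.05 the counts were 0, 1 and 4 of the 4 in these comparisons, against 35.7%, 36.7% and 17.1% of all tested genes. The first pair of comparisons shares its controls, and the last shares the Nicol-/- libraries with the first.

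Between Nicol-/- and Nicol+/- the log2 fold changes were 1.56 for Fabp4 (95% interval -0.49 to 3.60, adjusted p = 0.250 from limma), 1.33 for Cfd, 1.19 for Car3 and 0.22 for Plin4 (-0.24 to 0.67, adjusted p = 0.476 from limma). Their median was 1.26, beside 0.0045 over all tested genes. The intervals of Fabp4, Cfd and Car3 spanned about 4 log2 units, and reached from below no change to more than 3 units above it. Without Nicol-/- replicate 3, the call changed for these 3 markers, which then were higher in Nicol-/- by 2.67 for Fabp4 (adjusted p = 0.0231), 2.49 for Cfd (adjusted p = 0.0244) and 2.42 for Car3 (adjusted p = 0.0142) in limma. Cfd and Car3 passed the filter only through 3 libraries, and both Nicol-/- libraries then left were among them. For these 2 genes that fit is therefore no test of genotype. Nicol-/- replicate 3 also had the highest sum of efferent duct and ciliated cell markers, a list that was higher across Nicol-/-. Whether this is related to the adipocyte markers was not tested. Without Nicol-/- replicate 2, Fabp4 stood at 0.80 on this scale.

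Between Ros1-/- and Nicol+/- the log2 fold changes were -0.96 for Car3, -0.86 for Cfd and -0.76 for Fabp4 (95% interval -2.80 to 1.29, adjusted p = 0.583 from limma), and -0.53 for Plin4 (-0.98 to -0.07, adjusted p = 0.0908 from limma). Their median was -0.81, beside 0.014 over all tested genes. Without Ros1-/- replicate 3, Plin4 was called lower in Ros1-/- (-0.72, adjusted p = 0.0352 from limma). Without Nicol+/- replicate 3, the value of Fabp4 was -0.10.

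Between Ros1-/- and Nicol-/- the log2 fold changes were -2.31 for Fabp4 (95% interval -4.36 to -0.27, adjusted p = 0.237 from limma), -2.19 for Cfd, -2.15 for Car3 and -0.75 for Plin4 (-1.20 to -0.29, adjusted p = 0.104 from limma). Their median was -2.17, beside 0.013 over all tested genes. Plin4 was the only one of the 4 whose Ros1-/- values all lay below the Nicol-/- values, as they did for 12% of all tested genes. Without Nicol-/- replicate 3 limma called 3 markers lower in Ros1-/-, at -3.43 for Fabp4 (adjusted p = 0.0405), -3.38 for Car3 (adjusted p = 0.0296) and -3.35 for Cfd (adjusted p = 0.0381). Here too, both Nicol-/- libraries left were among those through which Car3 and Cfd passed the filter. For these genes that fit is therefore no test of genotype.

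**Figure D4:**
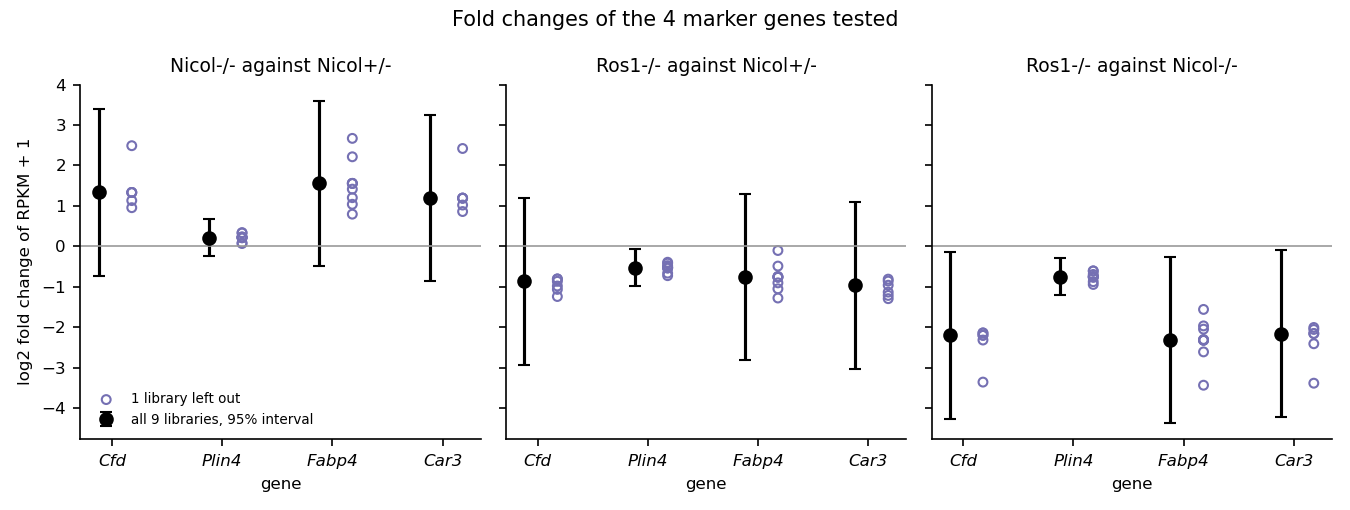
Log2 fold changes of RPKM + 1 (vertical axis) of the 4 markers tested in the 3 comparisons, as filled points with 95% intervals from limma over 9 libraries and as open circles from the fits with 1 library left out in which the gene still passed the filter. Every interval of Cfd, Fabp4 and Car3 is wider than 4 units, and their outermost open circles, up to 2.67 and down to -3.43, are those without Nicol-/- replicate 3.

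Other genes of adipocytes were called in both directions. Of 46 symbols for adipocyte transcription factors, lipid synthesis, lipolysis, lipid uptake and other selective products, 44 were in the table and 35 were tested. In Nicol-/- against Nicol+/-, limma called 5 of them lower and 5 higher, where 11.9% of all tested genes were lower and 8.95% higher. For Ros1-/- against Nicol+/- the calls were 6 lower and 4 higher (background 13.3% and 9.52%). For Ros1-/- against Nicol-/- they were 3 lower and 0 higher (background 1.15% and 0.403%). The 10 calls in Nicol-/- against Nicol+/- became 6 without Nicol-/- replicate 1, Nicol+/- replicate 2 or Nicol+/- replicate 3. The 10 in Ros1-/- against Nicol+/- became 5 without Ros1-/- replicate 1 and 6 without Ros1-/- replicate 2 or Nicol+/- replicate 3. The 3 in Ros1-/- against Nicol-/- became 0 without Nicol-/- replicate 1, Ros1-/- replicate 1 or Ros1-/- replicate 2, and 1 without Ros1-/- replicate 3. Their median log2 fold changes were 0.14, -0.15 and -0.04. Pparg, the transcription factor that fat cells require, was at 0.204, 0.281 and 0.361 RPKM in Nicol-/-, 0.332, 0.252 and 0.117 RPKM in Ros1-/-, and 0.524, 0.0783 and 0 RPKM in Nicol+/-, so it was listed at 0 in a library in which Adipoq was among the highest. Its correlation with Adipoq was -0.09.

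Cd36, a fatty acid transporter of fat cells and of capillaries, came nearest to the markers among the genes of uptake and storage. It had 4.38, 4.44 and 1.17 RPKM in Nicol-/-, 0.806, 0.858 and 1.87 RPKM in Ros1-/-, and 1.01, 0.765 and 2.19 RPKM in Nicol+/-, with a correlation of 0.786 with Adipoq. The same 3 libraries were highest, and limma called it in no comparison (adjusted p = 0.150 in Nicol-/- against Nicol+/-, 0.902 in Ros1-/- against Nicol+/- and 0.263 in Ros1-/- against Nicol-/-). Thrsp, a gene of lipid synthesis, had a correlation of 0.848 and at most 2.39 RPKM.

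Some lipid genes differed by genotype, with calls that held when any library was left out. Scd1, the desaturase that makes monounsaturated fatty acids, had 17.3, 23.9 and 15.8 RPKM in Nicol-/-, 13.2, 14.96 and 16.4 RPKM in Ros1-/-, and 73.6, 69.9 and 97.4 RPKM in Nicol+/-. It was lower in both, with log2 fold changes of -2.03 in Nicol-/- (adjusted p = 6.45e-05 from limma) and -2.35 in Ros1-/- (adjusted p = 2.15e-05 from limma). Elovl6, a fatty acid elongase, was lower in both as well, with log2 fold changes of -0.98 in Nicol-/- (adjusted p = 0.000616 from limma) and -0.92 in Ros1-/- (adjusted p = 0.000702 from limma). Adig, which encodes adipogenin, a small membrane protein of fat cells, was higher in both. It had 67.8, 68.0 and 105.8 RPKM in Nicol-/-, 84.5, 74.8 and 80.3 RPKM in Ros1-/-, and 37.9, 48.5 and 50.8 RPKM in Nicol+/-, with log2 fold changes of 0.78 in Nicol-/- (adjusted p = 0.0147 from limma) and 0.80 in Ros1-/- (adjusted p = 0.0117 from limma), calls that were lost without a filter on low values. In none of these was the order of libraries that of Adipoq, and their correlations with it were 0.121 for Scd1, 0.032 for Elovl6 and -0.18 for Adig. After the genotype means were taken away, they were 0.842 for Scd1, 0.571 for Elovl6 and -0.583 for Adig. Within genotypes, Scd1 thus moved with Adipoq.

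**Figure D5:**
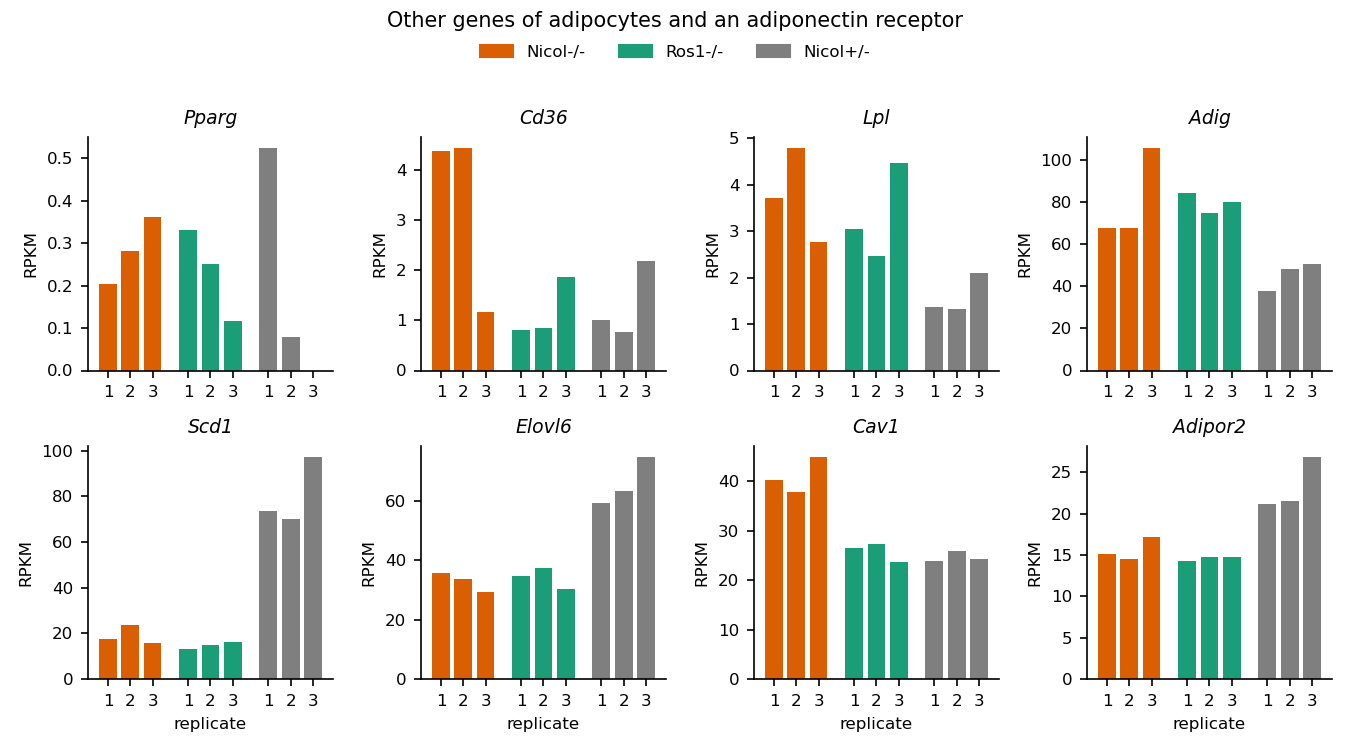
RPKM (vertical axes from 0) of 7 further genes of adipocytes and of the adiponectin receptor gene Adipor2 in the 9 libraries, 1 bar per library. Cd36 has its 3 tallest bars, 4.44, 4.38 and 2.19 RPKM, in the libraries in which the markers were high, while Scd1, Elovl6 and Adipor2 separate Nicol+/- from both knockouts.

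Receptors for the secreted markers were present in the tissue. Of 7 receptors and partners, all tested, 2 were called lower in Nicol-/- and 1 in Ros1-/-, against Nicol+/-, where 11.9% and 13.3% of all tested genes were lower. The adiponectin receptor gene Adipor1 was one of them in Nicol-/-, with a call lost in 6 of the 9 fits that left out a library (all but those without Nicol-/- replicate 1, Ros1-/- replicate 2 or Ros1-/- replicate 3). That call was also lost with quantile normalization, with only the 6 libraries compared and with the replicate number as a block in these 6. Adipor2, another receptor for adiponectin, had 15.2, 14.6 and 17.2 RPKM in Nicol-/-, 14.2, 14.8 and 14.7 RPKM in Ros1-/-, and 21.1, 21.6 and 26.9 RPKM in Nicol+/-, and was lower in both knockouts, with log2 fold changes of -0.53 in Nicol-/- (adjusted p = 0.00763 from limma) and -0.63 in Ros1-/- (adjusted p = 0.00294 from limma). Lepr, the leptin receptor, and Cfb, the substrate of adipsin, were not called in either knockout.

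Relatives of the markers within their gene families were read as well. At an unadjusted p under 0.05, the shares of all tested genes to set beside the counts that follow are 35.7% in Nicol-/- against Nicol+/-, 36.7% in Ros1-/- against Nicol+/- and 17.1% in Ros1-/- against Nicol-/-. The perilipins Plin2, Plin3 and Plin5 were all tested and 0 of 3 were called by limma in any comparison (0 of 3 also at an unadjusted p under 0.05). Cideb, a relative of Cidec, had 3.21, 3.53 and 5.01 RPKM in Nicol-/-, 2.29, 2.05 and 2.67 RPKM in Ros1-/-, and 1.09, 1.91 and 1.83 RPKM in Nicol+/-, and was higher in Nicol-/- by 0.91 on the log2 scale (adjusted p = 0.00756 from limma). Of 8 fatty acid binding protein genes related to Fabp4, 3 were tested and 0 were called by limma in any comparison. At an unadjusted p under 0.05 there were 2, Fabp3 and Fabp9, in each knockout against Nicol+/-, and 0 in Ros1-/- against Nicol-/-. Of 11 carbonic anhydrase genes related to Car3, 5 were tested. Against Nicol+/-, limma called Car5b lower in Nicol-/- (-0.69, adjusted p = 0.00136) and in Ros1-/- (-0.66, adjusted p = 0.0014), and Car12 higher in Nicol-/- (0.52, adjusted p = 0.0311) and in Ros1-/- (0.71, adjusted p = 0.00741). Car14 was called higher in Nicol-/- (0.70, adjusted p = 0.029 from limma). The Nicol-/- calls of both Car12 and Car14 were lost without Nicol-/- replicate 1, Nicol-/- replicate 3, Nicol+/- replicate 2 or Nicol+/- replicate 3, that of Car12 also without Ros1-/- replicate 1 and with the replicate number as a block in 6 libraries. Ucp1, which marks thermogenic rather than white fat cells, reached at most 0.655 RPKM, and 0 of 3 thermogenic genes tested were called by limma (0 of 3 also at an unadjusted p under 0.05).

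Markers of other tissues were read beside the adipocyte markers. Hba-a1, an alpha globin gene of red blood cells, had 25.2, 164.1 and 16.99 RPKM in Nicol-/-, 9.90, 21.4 and 17.7 RPKM in Ros1-/-, and 10.1, 41.9 and 24.8 RPKM in Nicol+/-, with a correlation of 0.837 with Adipoq. Its near-identical copy Hba-a2 was listed at 0.0368 to 0.0373 RPKM in every library, so the level of Hba-a1 is uncertain where reads fit both. Upk3b, a gene of the mesothelium that covers the organ and its fat, had 1.22, 1.44 and 0.514 RPKM in Nicol-/-, 0.0709, 0.359 and 0.351 RPKM in Ros1-/-, and 0.448, 0.134 and 0.641 RPKM in Nicol+/-, with a correlation of 0.840. Summed over 6 mesothelial markers the level was 21.8 to 29.2 RPKM in Nicol-/-, 15.6 to 27.8 RPKM in Ros1-/- and 42.8 to 65.8 RPKM in Nicol+/-. Most of this sum was Upk1b, with means of 21.8, 20.5 and 53.2 RPKM in the same order of genotypes. Msln, Upk3b, Lrrn4, Wt1 and Bnc1 had higher means in Nicol-/- than in Nicol+/-, as in Msln at 1.32 against 0.273 RPKM. The sum therefore shows the level of 1 gene more than that of the list. The 4 red blood cell markers summed to 17.5 to 168 RPKM in Nicol-/-, 10.7 to 22.1 RPKM in Ros1-/- and 10.7 to 43 RPKM in Nicol+/-. Most of this sum was again 1 gene, Hba-a1. Hbb-b1, a beta globin gene outside this list, had 35.1, 183.7 and 14.5 RPKM in Nicol-/-. It had 10.7, 23.7 and 24.6 RPKM in Ros1-/-, and 14.5, 45.4 and 26.9 RPKM in Nicol+/-. The highest red blood cell sum was that of Nicol-/- replicate 2, the library with the most adipocyte marker reads. The 6 smooth muscle markers, all tested, summed to 695.5 to 735.3 RPKM in Nicol-/-, 387.1 to 425.1 RPKM in Ros1-/- and 382.5 to 531 RPKM in Nicol+/-. Limma called 5 of them higher and 0 lower in Nicol-/- against Nicol+/- (median log2 fold change 0.56), 4 lower and 0 higher in Ros1-/- against Nicol-/- (median -0.70), and 1, Smtn, lower in Ros1-/- against Nicol+/- (median -0.14). Of all tested genes, 8.95% were higher in Nicol-/- against Nicol+/-. Lower were 1.15% in Ros1-/- against Nicol-/- and 13.3% in Ros1-/- against Nicol+/-. The 5 became 3 without Nicol-/- replicate 1, Nicol+/- replicate 2 or Nicol+/- replicate 3, the 4 became 0 without Nicol-/- replicate 1 or any of the Ros1-/- libraries, and the call of Smtn in Ros1-/- against Nicol+/- was lost without Ros1-/- replicate 1 or 3. Without a filter on low values the 5 became 3 and the 4 became 0, and with only the 6 libraries compared the 5 became 3. Acta2, Tagln and Cnn1, which encode proteins of the contractile apparatus, kept their calls in Nicol-/- against Nicol+/- in all 9 fits that left out a library. Across the 9 libraries their correlations with Adipoq were 0.416, 0.462 and 0.216. After the genotype means were taken away, these were -0.277, -0.0936 and -0.814. The part of muscle, of blood and of other attached tissue in the levels of the adipocyte markers was not tested.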

How the data were processed

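RNA-seq of IS-caput epididymis was measured in 9 libraries (3 Nicol-/-, 3 Ros1-/- and 3 Nicol+/-), grouped by the genotype in the sample labels. The authors prepared stranded mRNA libraries, sequenced single-ended 101 bp reads, mapped them to mm10 with TopHat2 2.1.1 and calculated expression with Cufflinks 2.2.1. The deposited FPKM, which for single-ended reads is RPKM, had been scaled between libraries by the authors. The other deposited value is a normalized count, used as a signal and not as counted reads, and no count model was fitted to it. Between 98.7% and 98.8% of its low values were whole multiples of 1 step in each library (tolerance 0.02), and values divided by that step gave the estimated reads and the depth of 8189631 to 16595501 reads. The gene annotation used, the treatment of multi-mapped reads and the strand setting were not stated.

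The 13647 genes that reached 1 RPKM in 3 or more of the libraries were tested as log2(RPKM + 1), a scale that understates changes of low genes, with limma 3.58.1 in R 4.3.3. A single fit of the 3 group means with a mean-variance trend left 6 residual degrees of freedom. P-values were adjusted by Benjamini-Hochberg over all tested genes, with a threshold of 0.05. With 3 against 3 libraries, the smallest exact permutation p is 0.1. The fit was tested on simulated data. Alternatives covered the pseudocount, the filter, the scaling, the variance model, the threshold, the normalized count as the measure, the 6 libraries compared alone, a replicate block and leaving out each library. Across genes, libraries of 1 genotype correlated at 0.966 to 0.99, and no more than 0.0118% of their values were identical. Between Nicol-/- and Nicol+/-, deviations from the group means correlated at 0.103 to 0.243 for libraries with the same replicate number and at -0.20 to 0.06 for others. The numbers thus appeared to pair Nicol-/- with Nicol+/- only. This was read from the data and not from the labels, and correlations this weak leave it uncertain. The main fit did not use this pairing. Fold changes, intervals and adjusted p-values not said to come from an alternative are therefore unpaired. A replicate block within the Nicol-/- and Nicol+/- libraries was run as an alternative.

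The members and gene lists were chosen with earlier results of these data known. Named genes are the 9 markers, up to 4 genes per list with the smallest p, markers that bear on a cell type check, the 12 genes most like Adipoq and the targeted genes. Thrsp and Cd36 were added with their values already known. Sequences come from RefSeq (GRCm38.p6) and coordinates from GENCODE vM21. Figures were drawn with matplotlib 3.10.9.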

Additional observations from a re-analysis of the deposited data

How the results depend on the processing

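No log2 fold change of a tested marker changed sign under any alternative run. The number of markers called was 0 of those tested in each comparison, and it came to 1 with a replicate block over the 9 libraries in Ros1-/- against Nicol-/- and 1 in Ros1-/- against Nicol+/-, and to 1 with an adjusted p threshold of 0.1 in Ros1-/- against Nicol+/-. No pairing of the Ros1-/- numbers with those of the other genotypes was seen. Same-number correlations of deviations were -0.04 to 0.10 with Nicol+/- and -0.09 to 0.13 with Nicol-/-, and not every library correlated best with its own number. Correlations this weak, from so few libraries, can neither show nor exclude a pairing, and the labels do not give one. Each of these calls was Plin4, lower in Ros1-/- (adjusted p = 0.0198 against Nicol-/- and 0.00563 against Nicol+/- with the block, from limma). Leaving out a library gave 0 to 3 called markers in Nicol-/- against Nicol+/-, 0 to 1 in Ros1-/- against Nicol+/- and 0 to 3 in Ros1-/- against Nicol-/-, the 3 in each case without Nicol-/- replicate 3. Car3 and Cfd did not pass the filter without Nicol-/- replicate 1, Nicol-/- replicate 2 or Nicol+/- replicate 3, nor with a minimum of 5 RPKM. Their calls without Nicol-/- replicate 3 thus rest on Nicol-/- libraries through which they passed it. The replicate block within Nicol-/- and Nicol+/- alone, added after seeing the data, changed no marker call.

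Of all tested genes, 2849 were called in Nicol-/- against Nicol+/-, 1732 with only the 6 libraries compared, 1730 with the replicate block in these 6 and 1337 to 2542 with a library left out. In Ros1-/- against Nicol-/- 212 were called, 77 without a filter, 84 with the 6 libraries compared, 613 at a threshold of 0.1 and 5 to 291 with a library left out, the 5 without Ros1-/- replicate 1. In Ros1-/- against Nicol+/- 3109 were called, and 1641 to 3900 with a library left out. Of the other adipocyte genes, 10 were called in Nicol-/- against Nicol+/-, 4 without a filter and 6 to 13 with a library left out. In Ros1-/- against Nicol+/- 10 were called, and 5 to 12 with a library left out. In Ros1-/- against Nicol-/- 3 were called, 1 without a filter, 5 with the replicate block over the 9 libraries, 6 at a threshold of 0.1 and 0 to 2 with a library left out. The causes of these changes were not tested. A test on whole reads, planned where reads could be recovered, was not run, because a few values lay off the steps. Few reads limit every marker but Plin4.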
